A study of Homo sapiens with 12 samples.

Results

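POLR3A was measured as 4 transcript rows of a deposited table of 194142 Ensembl transcript rows. The rows were chosen by identifier: a row belonged to POLR3A (ENSG00000148606) where its transcript identifier, without the version, was assigned to that gene in GENCODE release 29 on GRCh38. That annotation gives POLR3A 5 transcripts. The fifth, ENST00000616246, was not analysed here. A further 15 rows stood between matched POLR3A rows in the table, but the annotation used here does not contain their identifiers and so does not give their gene. They are called the intervening rows, and their values are kept apart from those of the matched rows throughout.

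All libraries were made from the human cell line HEK293T, which derives from embryonic kidney and takes up nucleic acids readily. The labels name no genetic change for any group. The siRNA experiment compared cells 2 days after transfection of siRNA to POLR3A (the group siPOLR3A) with cells given control siRNA (siControl). The inhibitor experiment compared cells after 4 hours in 25 µM ML60218, an inhibitor of RNA polymerase III, with cells in the vehicle alone (0.1% DMSO). Each of the 4 groups had 3 mRNA sequencing libraries. The labels do not say whether the 3 libraries of a group came from separate cultures, so the p-values measure the spread between these libraries, which may be technical.

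POLR3A encodes the largest subunit of RNA polymerase III (Pol III), the enzyme that makes transfer RNAs, 5S ribosomal RNA, U6 and other short non-coding RNAs. The largest subunit forms the catalytic centre together with the second largest, POLR3B. Other subunits are found in Pol III alone or are shared with RNA polymerase I or II, and the enzyme is brought to its genes by the factors TFIIIA, TFIIIB, TFIIIC and SNAPc. As an mRNA, POLR3A is itself a product of RNA polymerase II. mRNA libraries such as these show the mRNA of the subunit, not the activity of the enzyme or the amount of the protein.

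The gene lies on the minus strand of chromosome 10, at chr10:77969251-78029545 (GRCh38). ENST00000372371 is the full-length protein-coding transcript, with 31 exons over chr10:77975149-78029545. ENST00000473588, at chr10:78002197-78019252, has 8 exons and is annotated as a target of nonsense-mediated decay, the pathway that removes mRNAs with a premature stop codon. ENST00000484760, at chr10:78013086-78020173, has 3 exons and is annotated as a processed transcript with no coding sequence. Of its 1859 bases, 1472 (79.2%) lie outside the exons of the full-length transcript, with 908 in the intron before exon 9 and 564 past the end of exon 11. ENST00000472014, at chr10:77991109-78009667, is a processed transcript of 5 exons.

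**Figure D1:**
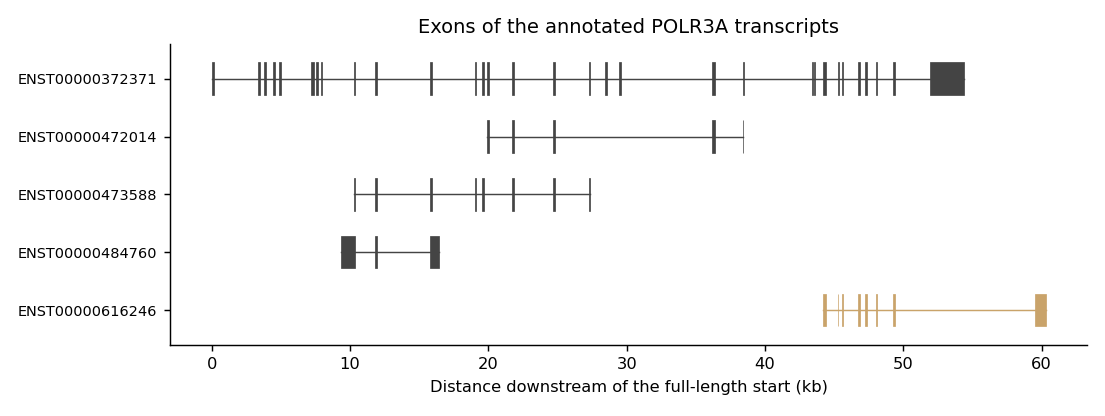
Exons (boxes) and introns (lines) of the 5 annotated POLR3A transcripts, drawn by distance in kb downstream of the start of the full-length transcript. The 4 transcripts in dark grey had a row that was analysed. ENST00000616246, in tan, was not analysed here.

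The junctions below show where ENST00000473588 and ENST00000484760 part from the full-length transcript. Each is written 5′ to 3′ on the transcript strand, with 15 bases on each side. The capitals mark the bases that follow the junction, or that follow the end of exon 11 where the transcript reads on into the intron. They were read from the GENCODE transcript sequences. The exon 14 to exon 15 sequence is also in ENST00000472014 and the exon 11 to exon 12 sequence also in ENST00000473588, so these sequences are not particular to the full-length transcript.
Full-length exon 13 to exon 14: cctacaatcctaaagCCTGTCACCCTGTGG
Full-length exon 14 to exon 15: gtgccaatgattcctATGTTACAATCCAGA
ENST00000473588, exon 13 joined to exon 15: cctacaatcctaaagATGTTACAATCCAGA
Full-length exon 11 to exon 12: cttgttctgatggggACTAAAGCAAATCTT
ENST00000484760, exon 11 read on into the intron: cttgttctgatggggGTATGTAGGGTGGCA
The exon 13 to exon 15 junction joins chr10:78009864-78009878 to chr10:78007852-78007866. It leaves out exon 14, which is 139 bases long and so not a multiple of 3. The end of exon 11 lies at chr10:78013650-78013664, and ENST00000484760 goes on into chr10:78013635-78013649 where the full-length transcript goes on to chr10:78010526-78010540. The deposited values are per transcript, so no reads over these junctions were counted here.

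Depth was 37008325 to 49479476 estimated reads per library, of which 91.0% to 91.6% fell in rows with a matched gene. The line expressed VIM (267 to 435 TPM, an abundance per length that sums to a fixed total), KRT18 (24.5 to 36.7), PAX2 (3.36 to 5.19) and WT1 (2.59 to 5.22). Of the other kidney lineage genes, PAX8 was at 0.175 TPM or less in the 12 libraries and LHX1 at 0.680 to 1.90. CDH2 was at 42.7 to 65.6 TPM, and the epithelial genes KRT8 (2.08 to 6.18), CDH1 (1.31 to 4.51) and EPCAM (1.32 to 4.09) were lower. The neural genes NEFL (48.8 to 82.8 TPM), NEFM (32.7 to 102) and INA (3.98 to 10.6) were expressed as well. Of the markers of other cells, PTPRC was listed at 0 in the 12 libraries, PECAM1 and ALB were below 1 TPM in each of them, and DCN was at 0.207 to 1.21. COL1A1, a fibroblast gene, was at 18.2 to 28.1 TPM, and its part in the results was not tested.

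The POLR3A siRNA lowered POLR3A mRNA to 19.4% of its control level. Summed over the matched rows and scaled to library size (CPM, with TMM factors), POLR3A stood at 92.2, 93.5 and 86.8 CPM in the siControl libraries and at 19.3, 19.0 and 14.6 CPM in the siPOLR3A libraries. Every siPOLR3A library lay far below every siControl library, and the third siPOLR3A library was the lowest. The means were 90.8 ± 3.56 and 17.6 ± 2.65 (SD, n = 3), and the siPOLR3A libraries kept 16.0% to 21.2% of the control mean. The log2 fold change was -2.36 (SE 0.108, 95% interval -2.64 to -2.08), with an adjusted p of 1.94e-05 in edgeR's quasi-likelihood test. In this comparison 56.6% of 15404 genes passed an adjusted p of 0.05, 27.4% as higher and 29.2% as lower, and 63.4% had groups that did not overlap, so passing the test did not set POLR3A apart. Its fold change was the 12th lowest of the 15404. In bulk RNA, fewer cells with the transcript and less transcript per cell cannot be told apart.

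After 4 hours of ML60218, POLR3A counted on its matched rows was lower by a much smaller step. POLR3A stood at 112, 118 and 108.0 CPM in the DMSO libraries and at 85.1, 89.0 and 85.3 CPM in the ML60218 libraries. The groups did not overlap, and the ML60218 libraries kept 75.6% to 79.1% of the DMSO mean. The means were 113 ± 4.99 and 86.5 ± 2.2 (SD, n = 3). The log2 fold change was -0.38 (SE 0.0411, 95% interval -0.47 to -0.29), with an adjusted p of 0.000229 in edgeR's quasi-likelihood test. In this comparison 39% of 15461 genes passed, 18.1% as higher and 20.9% as lower, 51.9% had groups that did not overlap, and the fold change of POLR3A was the 900th lowest. On the log2 scale of TPM plus 1, the change was -0.23 with an adjusted p of 0.0512 in limma, and on log2(TPM + 0.1) it was -0.24 with an adjusted p of 0.0499, so on TPM this call lies at the threshold. With the intervening rows added on that TPM scale, an alternative chosen after seeing the data, the change was 0.014 (adjusted p = 0.909, limma).

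**Figure D2:**
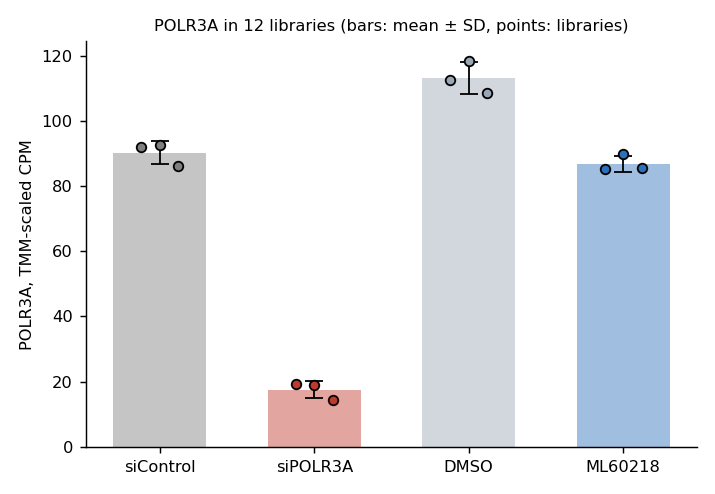
POLR3A summed over its matched rows, in TMM-scaled CPM (y axis, from 0), for the 12 libraries scaled together. Bars are group means, error bars 1 SD and points the 3 libraries of each group. The siPOLR3A libraries sit at 14.5 to 19.2, and the other 9 libraries at 85.3 or higher.

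With the 12 libraries scaled together, the order of the groups from high to low was DMSO (113 ± 4.99 CPM), siControl (90.2 ± 3.48), ML60218 (86.9 ± 2.46) and siPOLR3A (17.6 ± 2.65). The siControl range of 86.2 to 92.5 CPM and the ML60218 range of 85.3 to 89.7 CPM overlapped. The controls of the experiments differ in handling as well as in level, so this order across the experiments is a description with no test. The siPOLR3A effect was the stronger: in a fit of the 12 libraries, the siPOLR3A effect minus the ML60218 effect was -1.98 on the log2 scale (SE 0.108, adjusted p = 2.59e-08, edgeR). That difference passed for 50.9% of 15780 genes.

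Nearly all of the matched reads belonged to the full-length transcript. ENST00000372371 held 99.5% ± 0.156 of the reads of the matched rows in siControl, 96.7% ± 0.593 in siPOLR3A, 99.8% ± 0.155 in DMSO and 99.5% ± 0.0877 in ML60218 (SD, n = 3). Its estimated reads were 3067, 3349.5 and 3325 in siControl and 716, 686 and 482 in siPOLR3A. They were 4495, 5208 and 4578 in DMSO and 3091, 3207 and 3832 in ML60218. Neither pair of groups overlapped in these reads, which are not scaled to library depth. Scaled to CPM, the DMSO and ML60218 groups did not overlap either, as was the case for 27.5% of all rows tested.

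Tested as a row of its own among 69805 rows, the full-length transcript fell by 2.42 on the log2 scale after the siRNA (SE 0.123, adjusted p = 0.000303, edgeR). It was 1 of 2 matched rows that passed the filter on low counts, and the 1 that passed the test, where 11.3% of all rows tested did, 6.43% as lower. Its groups did not overlap, as was the case for 33.3% of all rows. After ML60218 its log2 fold change was -0.39 (SE 0.0510, adjusted p = 0.0324, edgeR), where 2.09% of 70417 rows passed, 1.28% as lower. That second call was lost when any 1 of the 6 libraries was left out, with adjusted p between 0.0664 and 0.134. The fold change itself stayed between -0.43 and -0.36 in those fits.

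The intron-containing transcript ENST00000484760 was present at a low level and showed no fall of the size seen for the full-length transcript. It had 13.8, 13 and 22.8 estimated reads in siControl and 23.0, 13.2 and 12.7 in siPOLR3A. In DMSO it had 12.8, 1.67 and 12.9, and in ML60218 12.0, 12.6 and 19.2. The groups overlapped in both experiments. The second DMSO library was far below the other 11 libraries.

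The log2 fold change of ENST00000484760 was -0.07 after the siRNA (95% interval -1.05 to 0.92, adjusted p = 0.949, edgeR). That interval does not reach the change of the full-length transcript. After ML60218 the value was 0.71 (95% interval -1.05 to 2.48, adjusted p = 0.697, edgeR), an interval too wide to place the transcript with or apart from the full-length one. As a share of the matched reads, ENST00000484760 went from 0.506% ± 0.156 in siControl to 2.50% ± 0.608 in siPOLR3A, and was 0.198% ± 0.144 in DMSO and 0.424% ± 0.0631 in ML60218 (SD, n = 3).

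Whether the rows of the gene changed to different degrees was tested directly. After the siRNA, ENST00000484760 changed by 1.61 on the natural log scale relative to its gene in edgeR's transcript usage test. Changes from that test are on this scale throughout, so their sizes cannot be set directly against log2 values. POLR3A as a gene had an adjusted p of 0.215 in that test, which called 3.16% of 10676 genes. The row itself had an adjusted p of 0.303 (edgeR). The same contrast in limma's version of the test gave 2.35 on the log2 scale. There the adjusted p of the gene was 0.0163 (limma), in a test that called 23.1% of genes. A test of the log2 ratio of a row to the other rows of its gene, chosen after seeing the data, gave 2.36 with an adjusted p of 0.0521 in limma, where 2.39% of 54250 rows passed. The direction was shared by the 3 tests. Of these, limma's version of the usage test passed the threshold, at the level of the gene. After ML60218 the first test gave 0.76 on the natural log scale. The last gave 1.45 on the log2 scale (adjusted p = 0.527, limma), and neither passed. Those tests called 1.66% of genes and 0.398% of rows in that comparison.

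The other matched rows were at the edge of detection. ENST00000473588, the transcript that leaves out exon 14, was listed at 0 in the 3 siControl libraries and at 4.62, 5.01 and 4.74 estimated reads in the siPOLR3A libraries. In DMSO it was listed at 0, 1.93 and 4.20, and in ML60218 at 1.93, 1.71 and 3.87. It did not pass the filter, so it has no test. Where reads are counted directly, a count of 0 allows up to 3 reads in a library. The values here are estimates, so that limit may not hold for them. ENST00000472014 was listed at 0 in the 12 libraries. Measured against the matched reads, 3 reads are a share of 0.0576% to 0.6%, depending on the library.

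The intervening rows held a large part of the reads in this stretch of the table. Of the reads of matched and intervening rows together, they took 36.5% ± 1.80 in siControl, 50% ± 7.57 in siPOLR3A, 25.8% ± 2.55 in DMSO and 36.1% ± 2.25 in ML60218 (SD, n = 3). In each experiment the treated libraries lay above their controls. The exact two-sided permutation test gave p = 0.1 for both differences, the smallest value that 3 libraries against 3 can give. By TPM, which corrects for row length, the intervening share was 42.9% ± 1.83 in siControl and 50.3% ± 7.43 in siPOLR3A (exact permutation p = 0.2), so the siRNA groups overlapped on that scale.

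**Figure D3:**
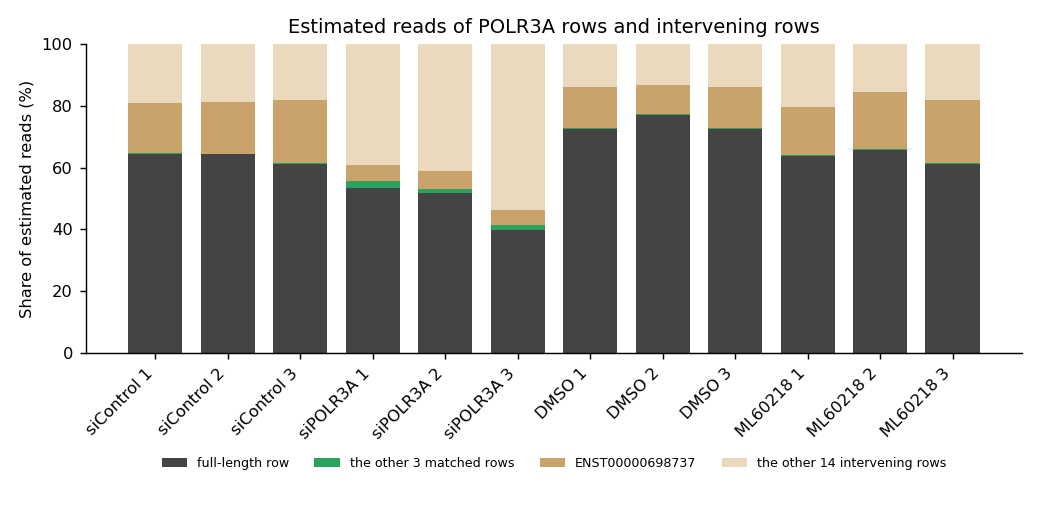
Share of estimated reads (y axis, percent) taken in each of the 12 libraries by the full-length row, the other 3 matched rows, ENST00000698737 and the other 14 intervening rows. The full-length share is 39.9% to 53.5% in the siPOLR3A libraries and 61.0% to 64.4% in the siControl libraries.

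The reads of single intervening rows varied between replicates. Of the 15 intervening rows, which were 3006 to 7614 bases long, 6 were above 0 in every library, 8 were at 0 in some libraries and above 0 in others, and 1 was listed at 0 in all 12. ENST00000698729 and ENST00000698730 reached 233 and 235 estimated reads, and in 11 of 12 libraries exactly 1 of that pair was above 0. The values of single intervening rows are therefore uncertain, and more so than their sum.

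Summing matched and intervening rows made both changes smaller, and the ML60218 change was not seen on this sum in TPM. In CPM, POLR3A went from 136 ± 1.87 to 33.6 ± 0.608 CPM after the siRNA (log2 fold change -2.02, SE 0.0297, adjusted p = 3.43e-20, edgeR), or 24.6% of control in place of 19.4%. The siPOLR3A libraries lay closer together on the sum, at 33.0, 34.2 and 33.5 CPM, than on the matched rows alone. After ML60218 the sum went from 145 ± 2.91 to 129 ± 2.82 CPM (log2 fold change -0.17, SE 0.0331, adjusted p = 0.0024, edgeR), or 89.1% of control in place of 76.8%. In TPM, the sum was 29.7, 28.6 and 27.0 in DMSO and 26.2, 28.4 and 31.7 in ML60218. These groups overlapped, with means of 28.4 ± 1.35 and 28.8 ± 2.77 (SD, n = 3), whereas after the siRNA the TPM sum went from 27.0 ± 0.551 to 6.81 ± 0.0816.

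ENST00000698737, a row of 4196 bases, had the highest mean reads of the intervening rows in siControl, DMSO and ML60218, though not in siPOLR3A, and, of those tested, the lowest fold change after the siRNA. It had 774, 875 and 1115 estimated reads in siControl and 69.3, 76.3 and 58.6 in siPOLR3A. In DMSO it had 825, 653 and 829, and in ML60218 746, 902 and 1282. The siRNA groups were far apart, whereas the DMSO and ML60218 groups overlapped.

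The log2 fold change of ENST00000698737 was -3.79 after the siRNA (SE 0.134, adjusted p = 9.03e-05, edgeR), with 7.21% of the control level left, against 18.7% for the full-length row. Relative to the other matched and intervening rows, it fell by 1.93 on the log2 scale (SE 0.139, adjusted p = 0.0043, limma). After ML60218 its log2 fold change was 0.43 (95% interval -0.01 to 0.86, adjusted p = 0.289, edgeR). The difference between the effects was -4.22 (adjusted p = 4.41e-06, edgeR), and this difference passed for 10.5% of 79149 rows.

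The other intervening rows ranged widely after the siRNA, and of those tested none passed the row test in edgeR. ENST00000698725 had 62.4, 45.1 and 50.1 estimated reads in siControl and 59.7, 58.1 and 55.9 in siPOLR3A, a log2 change of 0.10 (95% interval -0.45 to 0.64, adjusted p = 0.859, edgeR). ENST00000698727 and ENST00000698728 had fold changes of -0.46 and -0.37 on the log2 scale, and neither passed (adjusted p = 0.245 and 0.527, edgeR). ENST00000698734 was at -0.74 (adjusted p = 0.129, edgeR), and passed in DESeq2 at -0.75 (adjusted p = 0.0213). ENST00000698730 had 221, 188 and 235 estimated reads in siControl and 0, 138 and 132 in siPOLR3A. ENST00000698738 had 53.6, 42.3 and 10.9 in siControl and 0, 0 and 20.6 in siPOLR3A, and these groups overlapped. ENST00000698739, which did not pass the filter, had 0, 82.5 and 38.5 estimated reads in siControl and 4.90, 0 and 4.63 in siPOLR3A. ENST00000698731, which did not pass it either, had 78.3 reads in siControl library 1 and was listed at 0 in the other 2 siControl and the 3 siPOLR3A libraries. In the added ratio test with intervening rows, which passed for 2.37% of 60653 rows, 3 rows rose relative to the rest: ENST00000698725 by 2.23, ENST00000698728 by 1.73 and ENST00000698727 by 1.63 on the log2 scale (adjusted p = 0.0123, 0.0448 and 0.0204, limma). In edgeR's usage test on the same rows, the values were 1.49, 1.17 and 1.11 on the natural log scale. None of these passed (adjusted p = 0.999982 for each, edgeR). ENST00000698737 passed in that usage test as a row, at -1.20 on the natural log scale (adjusted p = 0.0411, edgeR). POLR3A as a gene did not pass it (adjusted p = 0.1005, edgeR). ENST00000484760 passed in neither test on these rows (adjusted p = 0.999982 in edgeR and 0.0907 in limma). The ratio of the full-length row to the rest changed by -0.84, with an adjusted p of 0.233 in limma's ratio test.

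After ML60218, the full-length row was the 1 row of the 2 matched and the tested intervening rows that passed the row test, and the ratio test called none of them, beside 0.446% of all rows in that ratio test (edgeR and limma). The full-length row had a ratio change of -0.74 against the rest (SE 0.133, adjusted p = 0.146, limma). ENST00000698728 had the highest value, with 74.6, 18.3 and 30.3 estimated reads in DMSO and 104, 143 and 183 in ML60218. These groups did not overlap, as was the case for 27.5% of all rows tested. Its log2 fold change was 1.86 (95% interval 0.41 to 3.31), with an adjusted p of 0.176 in edgeR and of 0.0112 in DESeq2.

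**Figure D4:**
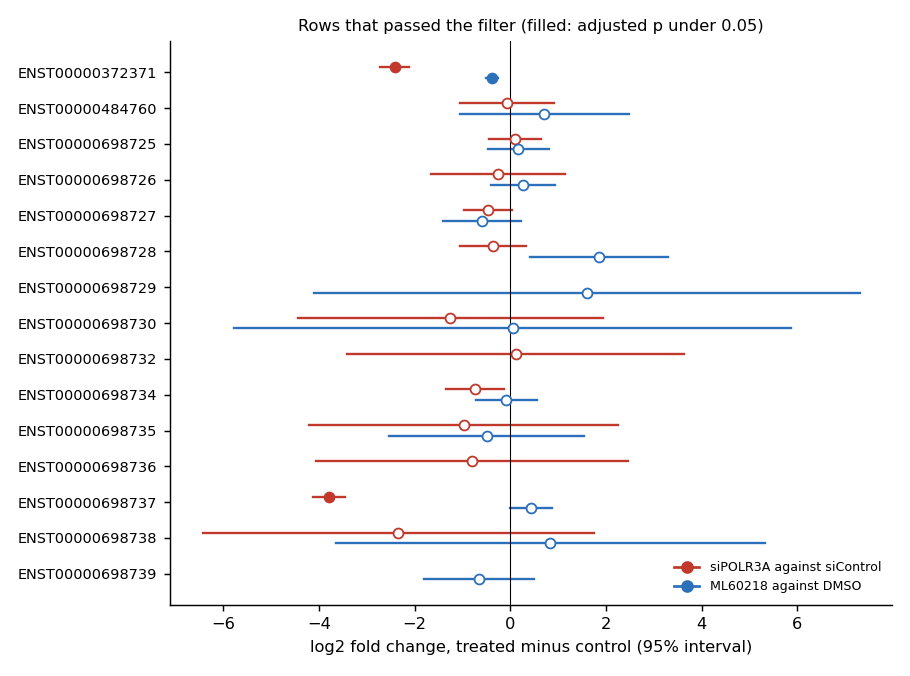
log2 fold change (x axis, treated minus control) with its 95% interval for the 2 matched and the intervening rows that passed the filter in either comparison, siPOLR3A in red and ML60218 in blue. Filled points passed an adjusted p of 0.05. ENST00000372371 and ENST00000698737 lie at -2.42 and -3.79 after the siRNA, and ENST00000484760 at -0.07.

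After the siRNA, none of the other subunits examined fell by as much as POLR3A. POLR3B, which forms the active centre with POLR3A, had a log2 value of 0.00 after the siRNA (SE 0.0341, adjusted p = 0.912, edgeR), with means of 70.2 ± 1.19 CPM in siControl and 70.4 ± 2.82 CPM in siPOLR3A (n = 3). Its 95% interval ran from -0.07 to 0.08, and after ML60218 its value was -0.05 (adjusted p = 0.461, edgeR). Across 9 other subunits specific to Pol III, 4 passed the test after the siRNA (44.4%), against 56.6% of all genes. Their median log2 fold change was 0.00, beside 0.01 for all genes tested.

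Within those 9 subunits the siRNA comparison had 2 higher and 2 lower. POLR3F, which with POLR3C and POLR3G forms the subcomplex used in initiation, rose by 0.50 on the log2 scale. CRCP, of the stalk that contacts initiation factors, rose by 0.30. POLR3K, a small subunit with a role in termination, fell by 0.33. POLR3D, of the dimer with POLR3E, fell by 0.13, a call that was lost with total count or upper quartile scaling. The others had log2 fold changes of 0.26 (POLR3C), 0.02 (POLR3GL), -0.01 (POLR3E) and -0.19 (POLR3G), with adjusted p between 0.277 and 0.832 (edgeR). With intervening rows added to their genes, POLR3C (0.20) and POLR3G (-0.23) also passed (adjusted p = 0.000176 and 8.16e-07, edgeR). POLR3C passed on log2(TPM + 1) too, at 0.41 (adjusted p = 0.00994, limma).

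After ML60218 the same 9 subunits had 3 higher and 1 lower (44.4%), against 39% of all genes. POLR3D rose by 0.29, POLR3E by 0.20 and POLR3C by 0.22 on the log2 scale, whereas POLR3K fell by 0.23. On log2(TPM + 1), POLR3K was at -0.08 and did not pass (adjusted p = 0.361, limma). The POLR3C groups overlapped, and its call was lost when DMSO library 1 or 3 or ML60218 library 2 or 3 was left out, and in the fit of the 12 libraries (adjusted p = 0.257, edgeR). POLR3F and POLR3GL were at 0.00, CRCP at 0.09 and POLR3G at -0.31, and none of these passed. POLR3G did pass with intervening rows added, at -0.14 (adjusted p = 0.0146, edgeR), in DESeq2 at -0.30 (adjusted p = 0.0385) and without DMSO library 1 at -0.45 (adjusted p = 0.0107, edgeR). CRCP passed without ML60218 library 1, at 0.15 (adjusted p = 0.0137, edgeR).

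**Figure D5:**
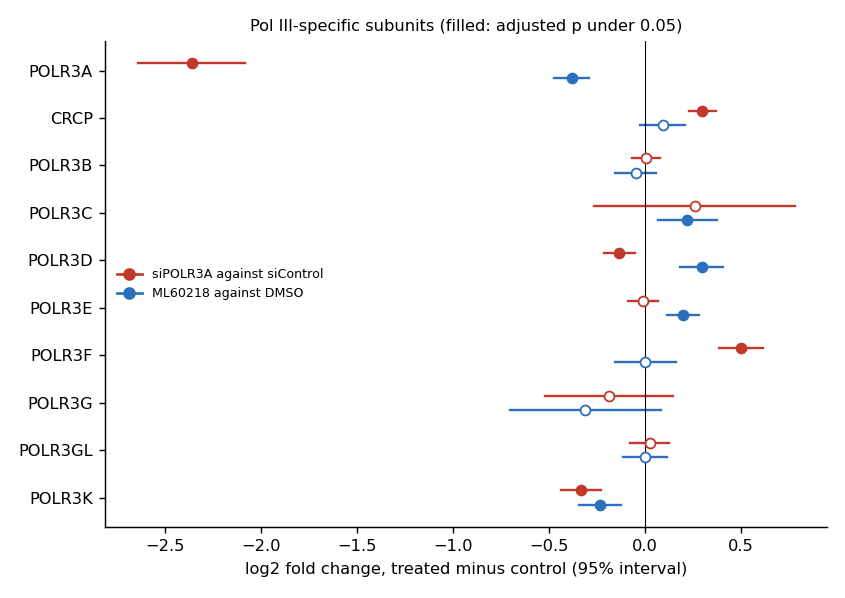
log2 fold change (x axis, treated minus control) with its 95% interval for POLR3A and 9 other subunits specific to Pol III, siPOLR3A in red and ML60218 in blue. Filled points passed an adjusted p of 0.05. POLR3A is at -2.36 and -0.38, and the other subunits lie between -0.33 and 0.50.

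Compared per length, as TPM on matched rows, POLR3A was one of the lower subunits in the control groups and had the lowest mean after either treatment. It was 8th of the 10 Pol III-specific subunits compared in siControl, at 15.4 ± 0.697 TPM, between POLR3B (18.6 ± 0.673) and POLR3F (13.2 ± 1.27). It was 10th in siPOLR3A, at 3.38 ± 0.473 TPM, and the next lowest subunit was POLR3D at 15.4 ± 0.816. In DMSO it was 8th, at 19.4 ± 1.10 TPM, where its range overlapped those of the neighbours POLR3D and POLR3F. In ML60218 it was 10th, at 16.4 ± 0.952 TPM, not separate from POLR3G at 16.8 ± 0.937 (SD, n = 3). The highest subunit in each group was POLR3E, at 60.7 to 78.4 TPM. With intervening rows added to each gene, POLR3A was 4th in siControl (27.0 TPM), 10th in siPOLR3A (6.81), 5th in DMSO (28.4) and 6th in ML60218 (28.8), so its place in the order depends on the rows counted except after the siRNA.

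The subunits that Pol III shares with RNA polymerase I or II passed in 6 of 7 cases in each comparison, beside 56.6% of all genes after the siRNA and 39% after ML60218. After the siRNA, 3 were higher and 3 lower, led by POLR1C, POLR2L and POLR2F, which rose by 0.27, 0.24 and 0.22 on the log2 scale. After ML60218, 6 were lower, beside 20.9% of all genes, and none higher, with POLR2L falling by 0.67, POLR2F by 0.51 and POLR2K by 0.49. The median log2 fold change of the 7 was -0.07 after the siRNA and -0.32 after ML60218, beside 0.01 for all genes tested in each. On log2 TPM in limma, 3 of the 7 passed after ML60218, and the share of all genes called on that scale is not reported here.

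No fall of that size was measured for the largest subunits of the other polymerases either. POLR1A, the counterpart in RNA polymerase I, had log2 fold changes of 0.05 after the siRNA (adjusted p = 0.205, edgeR) and -0.05 after ML60218 (adjusted p = 0.294, edgeR). After the siRNA it passed as higher with total counts at 0.10 (adjusted p = 0.0222), with upper quartile scaling at 0.11 (adjusted p = 0.0143) and without siPOLR3A library 1 at 0.08 (adjusted p = 0.0461, edgeR). POLR2A, the counterpart in RNA polymerase II, rose by 0.37 after the siRNA (adjusted p = 0.0189, edgeR), a call lost in DESeq2 (adjusted p = 0.0842), in the fit of the 12 libraries (adjusted p = 0.108, edgeR), without siControl library 2 or 3 and without siPOLR3A library 1. After ML60218 it was at 0.00. POLR2A had 2.70 to 4.07 CPM on average in the 4 groups even with intervening rows added, so its level here rests on few reads. On matched rows, the siControl libraries had 3.06 to 3.71 CPM and 9.26 to 11.9 TPM for POLR2A. For POLR1A they had 132 to 140 CPM and 28.2 to 29.2 TPM. POLR2A thus had far fewer reads for its TPM, so its reads lay on shorter rows than those of POLR1A. The POLR2A values are those of these rows, and whether they include its full-length mRNA was not tested. POLRMT, the mitochondrial polymerase, rose by 0.31 and POLR2B by 0.11 after the siRNA. Of the 5 genes in this list, 3 passed after the siRNA (60%), beside 56.6% of all genes. After ML60218, POLR2B fell by 0.19, the 1 call among the 5 (20%), beside 39% of all genes. On log2(TPM + 1), POLR2B was at -0.02 (adjusted p = 0.722, limma) and none of the 5 passed. In contrast, 2 passed with total count or upper quartile scaling or in the fit of the 12 libraries. The share of all genes called in those fits is not reported here.

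Of 16 tested initiation factor and repressor genes, 11 passed after the siRNA (6 higher and 5 lower) and 8 after ML60218 (3 higher and 5 lower). SNAPC3, a subunit of SNAPc, which binds the promoters of U6 and other snRNA genes, fell by 0.92 on the log2 scale after the siRNA. SNAPC2 of the same complex rose by 0.53, and TBP, which is part of TFIIIB, rose by 0.46. After ML60218 the 3 members with the largest change were SNAPC1, which rose by 0.31, and MAF1 and GTF3C6, both of which fell by 0.27. On log2(TPM + 1), MAF1 and GTF3C6 were both at -0.12 and no longer passed (adjusted p = 0.11 for both, limma). MAF1 is the repressor of Pol III, and GTF3C6 is a subunit of TFIIIC. BDP1, a TFIIIB subunit, was listed at 0 in its matched rows and was not tested. Over the 4 lists, 24 of 37 tested genes passed after the siRNA (64.9%) and 19 of 37 after ML60218 (51.4%), beside 56.6% and 39% of all genes.

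The genes on either side of POLR3A were looked at for a change at the locus. RPS24, a ribosomal protein gene on the plus strand 4186 bases from POLR3A (chr10:78033732-78056813), stood at 971 ± 25.6 CPM in siControl and 973 ± 17.3 CPM in siPOLR3A (n = 3). Its log2 fold change was 0.00 (95% interval -0.05 to 0.06, adjusted p = 0.902, edgeR), and 0.06 with upper quartile scaling, where it passed (adjusted p = 0.0276). After ML60218 it was -0.12 (adjusted p = 0.0603, edgeR) and passed with intervening rows added (adjusted p = 0.0446, edgeR), in the fit of the 12 libraries (0.0182), in DESeq2 (0.034) and without ML60218 library 1 or 3 (0.0216 and 0.0491, edgeR). DLG5, a scaffold protein gene 42724 bases away on the minus strand, ranged from 2.43 to 53.2 CPM over the siRNA libraries and passed in neither comparison.

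Genes whose levels ran most closely with POLR3A over the 12 libraries were ranked by Pearson correlation of log2 CPM among 10293 protein-coding genes. The first 5 were ZDHHC5, a palmitoyltransferase (r = 0.996), SLC16A1, a lactate and pyruvate transporter (0.996), HNRNPH2, an RNA-binding protein (0.996), TUBB6, a beta tubulin (0.995), and PBX2, a homeodomain protein (0.995). The 12 libraries form 4 groups, so r reflects the pattern of group means: its median over the genes was 0.129 and its 95th percentile 0.952. All 5 fell after the siRNA, by 0.95 (PBX2) to 1.94 (SLC16A1) on the log2 scale, and after ML60218, by 0.15 (PBX2) to 0.42 (ZDHHC5). They were picked for following POLR3A, so a fall with it was built in. On log2(TPM + 1), 4 of the 5 lost their ML60218 call, with changes of -0.02 (PBX2), -0.08 (SLC16A1), -0.11 (HNRNPH2) and -0.14 (TUBB6) and adjusted p between 0.0813 and 0.843 (limma), and PBX2 also lost it with total counts.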

How the data were processed

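Messenger RNA was sequenced from 12 HEK293T libraries, 3 in each of 4 groups taken from the sample titles. A stranded mRNA kit was used, per the labels. The deposited table gives an estimated count and a TPM value per transcript, under column names that the program salmon writes, per the file headers. Reads were demultiplexed with bcl2fastq 2.20 and trimmed with Trim Galore, and DESeq2 and hg38 are also named, per the submitters' processing notes. The quantifier's version, its annotation and whether it used strand are not given in the sources used here. The deposited TPM values sum to the same total in each library.

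Rows were assigned to genes by identifier in GENCODE 29 (81.6% of rows, 34318 genes). Unmatched rows, with 8.37% to 8.97% of reads, stayed out of the gene fits. Giving an unmatched row the gene of the matched rows on both sides was right for 99.9% of 107027 matched rows on which this was checked, and this defined the intervening rows. Estimated counts were summed per gene or kept per row, rounded, filtered with filterByExpr (minimum count 10, minimum total 15), scaled by TMM and tested two-sided with edgeR 4.0.16 (quasi-likelihood, robust) in R 4.3.3, each comparison on its own 6 libraries. P-values were adjusted by Benjamini-Hochberg over all genes or rows tested, and 0.05 was the threshold. Intervals are 95%. The biological coefficient of variation was 0.0554 (siRNA) and 0.0712 (ML60218) for genes, and 0.470 and 0.491 for single rows, so single rows are much less precise.

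Usage was tested with diffSpliceDGE in edgeR, and as alternatives with diffSplice and a log2 ratio test in limma 3.58.1. Changes from diffSpliceDGE are on the natural log scale, and those from diffSplice on the log2 scale. Tested on simulated data for the siRNA comparison, the usage tests made more false calls than their threshold allows. Other alternatives were DESeq2 1.42.0, other scalings, no filter, log2(TPM + 1) and log2(TPM + 0.1) in limma, intervening rows added, a fit of the 12 libraries, a replicate block and leaving out each library. Replicate pairs differed by more than sampling noise (chi-square per degree of freedom 4.17 to 21.7). Genes were named by rule: POLR3A and its rows, the Pol III-specific subunits (1 is not reported here), at most 3 called members of each other list, POLR1A and POLR2A, the nearest coding genes and the 5 most correlated genes. POLRMT, POLR2B and BDP1 fall under the lists. The members and lists were chosen with earlier results of these data known.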

Additional observations from a re-analysis of the deposited data

Results flagged for a closer look

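The POLR3A effects of the siRNA and of ML60218 differed between the experiments: the siPOLR3A effect minus the ML60218 effect was -1.98 on the log2 scale, with an adjusted p of 2.59e-08 in edgeR's test of that difference over 12 libraries. On the matched rows, the siPOLR3A libraries kept 16.0% to 21.2% of their control mean and the ML60218 libraries 75.6% to 79.1%. The experiments also differ in duration and in handling, which cannot be told apart from the agent.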

How the results depend on the processing

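1 direction that passed a test turned: on log2(TPM + 1) with intervening rows added, chosen after seeing the data, the ML60218 change of POLR3A was 0.014 (adjusted p = 0.909, limma), against -1.84 after the siRNA and -1.86 for the difference. The POLR3A change after the siRNA stayed between -2.43 and -2.25 with 1 library left out, that after ML60218 between -0.41 and -0.35, and their difference between -2.04 and -1.86. On log2(TPM + 1) the ML60218 change was -0.23 (adjusted p = 0.0512, limma) and on log2(TPM + 0.1) -0.24 (adjusted p = 0.0499). The count of Pol III list genes called after ML60218 went from 19 to 10 with either TPM pseudocount, and was 15 to 21 with 1 library left out. The siRNA count was 21 to 24. The share of all genes called in the alternative fits is not reported here, so these list counts cannot be set against it. Rows called after the siRNA went from 1 to 2 with intervening rows counted. The row called after ML60218 was lost with both TPM pseudocounts and with any 1 library left out (0 to 0 rows). The usage change of ENST00000484760 after the siRNA was 2.35 on the log2 scale in limma's test, which called the gene. In edgeR's test with 1 library left out, it was 1.47 to 1.79 on the natural log scale. After ML60218 it was 0.40 to 1.01 on that scale. Values of limma's and edgeR's tests are in different units, so their sizes cannot be compared directly. The cause of the other changes was not tested. A stricter usage filter of 50 reads in 3 libraries gave no value, since ENST00000484760 does not reach it.

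Same-numbered libraries had correlations between -0.07 and 0.07, so no pairing by replicate number was evident. With 3 libraries in each group, this cannot show that the libraries were unpaired. With a replicate block, the POLR3A changes were -2.37 and -0.38 and their difference -1.99, and the list counts were 25 and 18. The usage changes with that block in edgeR's test were 1.61 and 0.94 on the natural log scale. The rows called with it were 1 after the siRNA and 0 after ML60218. Low read numbers leave wide intervals for ENST00000484760 and no test for ENST00000473588.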
